A study of Mus musculus with 5 samples.

Results

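Hemoglobin transcripts and the messages of other red cell genes were examined in RNA from brain microvascular fragments, as a readout of blood carried along in the vessels. The set held 6 of the 37982 gene identifiers deposited: the alpha globins Hba-a1 and Hba-a2, the beta globins Hbb-b1 and Hbb-b2, the heme synthesis enzyme Alas2 and the red cell anion exchanger Slc4a1. Each of the 6 was found by its symbol in the NCBIM37 annotation, as 1 identifier. The samples were 3 WT and 2 Ins2-AKITA mice, with 1 library per mouse. All were males on a C57BL6 background aged between 26 and 38 weeks, and the WT mice were littermates. The Ins2-AKITA mice were heterozygous for a mutated insulin 2 gene, carried in every cell, and such mice develop hyperglycemia. The vessels had been pulled out of dissociated brain with beads against PECAM1, an endothelial surface protein, and washed on the beads. Whether blood was flushed from the brains before this step was not given in the sources used here.

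Adult hemoglobin is a tetramer of alpha and beta globin chains, each holding a heme group that binds oxygen. Its messages are made in erythroid precursors of the bone marrow and spleen. Mature red cells of mammals have no nucleus, and the remaining globin mRNA in blood sits mostly in reticulocytes, the youngest circulating red cells. ALAS2 carries out the first step of heme synthesis in erythroid cells, whereas its relative ALAS1 does so in most other cells. SLC4A1, also called band 3, exchanges chloride and bicarbonate across the red cell membrane and anchors the skeleton beneath it.

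Each globin gene has a near copy that lies close by on the same chromosome, and this bears on how far single globin values can be read. On NCBIM37, Hba-a1 (ENSMUSG00000069919) lies at chr11:32183511-32184465 and Hba-a2 (ENSMUSG00000069917) at chr11:32196489-32197301, both on the plus strand. Their coding sequences of 429 bases differ at 1 base, C381T, counted from 1 at the A of the start codon of Hba-a1. This base is in exon 3 of 3 of both genes, at position 32184343 in Hba-a1 and 32197160 in Hba-a2, and both codons stand for the same amino acid. Hbb-b1 (ENSMUSG00000052305) lies at chr7:110975048-110976610 and Hbb-b2 (ENSMUSG00000073940) at chr7:110961038-110962510, both on the minus strand. Their coding sequences of 444 bases also differ at 1 base, C417T, again in exon 3 of 3, at position 110975206 in Hbb-b1 and 110961197 in Hbb-b2, and without a change of the amino acid. The stretch around the differing base, which is in capitals, is shown for all 4 genes, since a read within the coding sequence can tell the copies apart only here.
Hba-a1: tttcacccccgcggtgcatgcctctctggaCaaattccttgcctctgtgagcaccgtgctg
Hba-a2: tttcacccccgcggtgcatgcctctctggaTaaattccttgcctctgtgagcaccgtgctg
Hbb-b1: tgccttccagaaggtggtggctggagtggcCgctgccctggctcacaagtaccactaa
Hbb-b2: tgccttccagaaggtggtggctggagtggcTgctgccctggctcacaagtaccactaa

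The first 300 bases of the coding sequence, given for context with the start codon in capitals, hold no difference between the copies of a pair.
Hba-a1 and Hba-a2: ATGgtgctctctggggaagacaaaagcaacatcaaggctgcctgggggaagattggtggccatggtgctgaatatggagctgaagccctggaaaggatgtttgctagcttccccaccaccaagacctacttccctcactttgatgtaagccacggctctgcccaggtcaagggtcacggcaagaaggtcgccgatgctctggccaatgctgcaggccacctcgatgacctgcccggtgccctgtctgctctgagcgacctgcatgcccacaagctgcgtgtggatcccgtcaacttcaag
Hbb-b1 and Hbb-b2: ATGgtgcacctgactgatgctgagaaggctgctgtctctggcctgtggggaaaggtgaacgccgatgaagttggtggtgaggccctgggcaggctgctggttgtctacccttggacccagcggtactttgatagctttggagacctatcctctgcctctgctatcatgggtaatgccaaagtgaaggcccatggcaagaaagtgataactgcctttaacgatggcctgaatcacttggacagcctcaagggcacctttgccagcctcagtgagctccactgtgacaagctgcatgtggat

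The untranslated ends of the transcripts also differ in part. Of all stretches of 50 bases in the first annotated transcript, 67.5% of those of Hba-a1 occurred in Hba-a2 as well and 86.9% of those of Hba-a2 in Hba-a1. For the beta globins the shares were 52.3% for Hbb-b1 and 58.3% for Hbb-b2. The read length was not given in the sources used here. Values of the single genes within a pair are therefore uncertain, and the sum of a pair is less affected. The names of the beta globins also depend on the annotation. The start regions of 300 bases that RefSeq lists for Hbb-bs and Hbb-bt in GRCm38.p6 occurred without a mismatch at the starts of Hbb-b1 and Hbb-b2 of NCBIM37, at chr7:110976393-110976692 and chr7:110962388-110962687. The rows named Hbb-b1 and Hbb-b2 here thus hold the genes that RefSeq calls Hbb-bs and Hbb-bt. The RefSeq start regions of Hba-a1 and Hba-a2 each occurred at both alpha globin genes.

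Globin messages were present in all 5 mice, at a low level. The values are FPKM, fragments per kilobase of transcript, scaled to the depth of the library. Over the 5 mice, Hba-a1 had the highest mean of the 6 genes, 18.7 FPKM, and ranked 4897 among 22199 protein-coding symbols. It was followed by Hbb-b1 at 9.93, Hba-a2 at 7.94, Alas2 at 5.46, Hbb-b2 at 2.02 and Slc4a1 at 0.036 FPKM. The values of Hbb-b1, Hba-a2 and Alas2 overlapped over the mice, and their order is within the spread. The 4 adult globins together made up between 0.00573% and 0.0149% of the summed FPKM of protein-coding genes. This share was 0.0131%, 0.0149% and 0.00808% in the WT mice, against 0.00685% and 0.00573% in the Ins2-AKITA mice, without an overlap. Among single tested symbols, 10.3% had both Ins2-AKITA mice below all WT mice. In comparison, the endothelial tight junction gene Cldn5 alone had between 2.42 and 4.05 times the summed globin FPKM in each mouse.

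The globin values rested on few sequenced fragments. The number of fragments per library was estimated from the steps between low FPKM values, and was 1170998, 1312399 and 2842990 in WT mice 1, 2 and 3 and 1136390 and 1288987 in Ins2-AKITA mice 1 and 2. For each of the 4 globins there was an annotated transcript length at which the values of all 5 mice corresponded to whole fragments within 0.1. This length was chosen after the values were seen. Hba-a1, at a length of 699 bases, corresponded to 12, 18 and 22 fragments in the WT mice, against 6 and 10 in the Ins2-AKITA mice. At its shortest annotated transcript of 457 bases the numbers would be between 2.90 and 10.8. Hba-a2, at 516 bases, corresponded to 4, 5 and 6 fragments in WT, against 1 and 2 in Ins2-AKITA mice. Hbb-b1, at 549 bases, corresponded to 6 fragments in each WT mouse and to 4 and 1 in the Ins2-AKITA mice, and at no other annotated length to more than 10.3. Hbb-b2, with 1 annotated transcript of 703 bases, corresponded to 2 fragments in each WT mouse and to 1 and 0 in the Ins2-AKITA mice. No transcript length of Alas2 gave whole numbers, and its values corresponded to at most 22.7 fragments in a mouse. The WT library of mouse 3 was 2.43 times as deep as that of mouse 1, and held as many Hbb-b1 and Hbb-b2 fragments. WT mouse 3 had the lowest WT FPKM of these genes and also of Hba-a1, Hba-a2 and Alas2. The part of depth, or of the removal of duplicated reads, in these values was not tested.

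**Figure D1:**
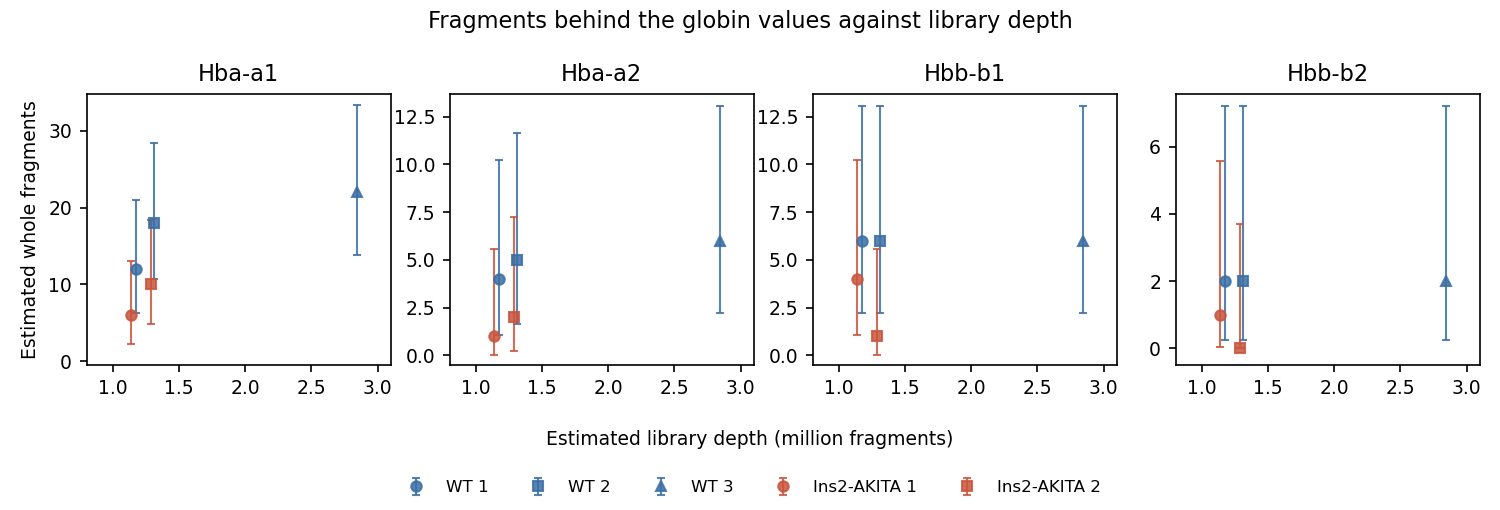
Estimated whole fragments of each adult globin gene (vertical axis) against the estimated depth of the library (horizontal axis, fragments), 1 symbol per mouse, WT in blue and Ins2-AKITA in red. Bars are exact 95% Poisson intervals, which cover counting error only, and WT mouse 3 stands at 2842990 fragments with 6 Hbb-b1 and 2 Hbb-b2 fragments, as many as the shallower WT libraries.

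The comparison of Ins2-AKITA with WT mice asked whether the hyperglycemic mice carried more or less red cell RNA in their brain vessels. The mean of both alpha globins, both beta globins and Alas2 was below that of the WT mice in Ins2-AKITA, but none of these differences passed the test, and 4 of the 5 turned positive when FPKM was rescaled to TPM. Of the 6 genes, 5 reached the minimum of 1 FPKM on average and entered the test, and Slc4a1 did not. The adjusted p was 0.896 for all 5 (limma on log2(FPKM + 1), Benjamini-Hochberg over 16286 symbols). Called lower were 0 of the 5, where 0.0246% of all tested symbols were called lower, and called higher were also 0 of the 5, with 0 symbols called higher among all. At an unadjusted limma p under 0.05 there was 1 of the 5, Hba-a2, where 2.93% of all symbols were lower and 1.53% higher at that level. A log2 fold change below 0 was found for 5 of 5 and for 53.5% of all tested symbols, and a log2 fold change at or below -0.95, the value of Hbb-b1, for 4 of 5 and for 6.16% of all. The cutoff of -0.95 was taken from the 5 genes themselves, so that the 4 of 5 follow from this choice. The 2 shares at this cutoff are therefore a description and no test of enrichment. The median over the 5 was -1.09, and that over all tested symbols -0.03. On the TPM scale the log2 fold changes were 0.86 for Hba-a1, 0.30 for Hba-a2, 0.38 for Hbb-b1, -0.12 for Hbb-b2 and 0.12 for Alas2, while the median of all tested symbols moved to 1.07. Relative to that median, the 5 genes stood between -1.19 and -0.21 on the TPM scale, and between -1.12 and -0.60 on the FPKM scale relative to its own median. The 5 genes are not independent of each other, as near copies can share reads. In bulk RNA, fewer red cells and less RNA per red cell cannot be told apart.

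**Figure D2:**
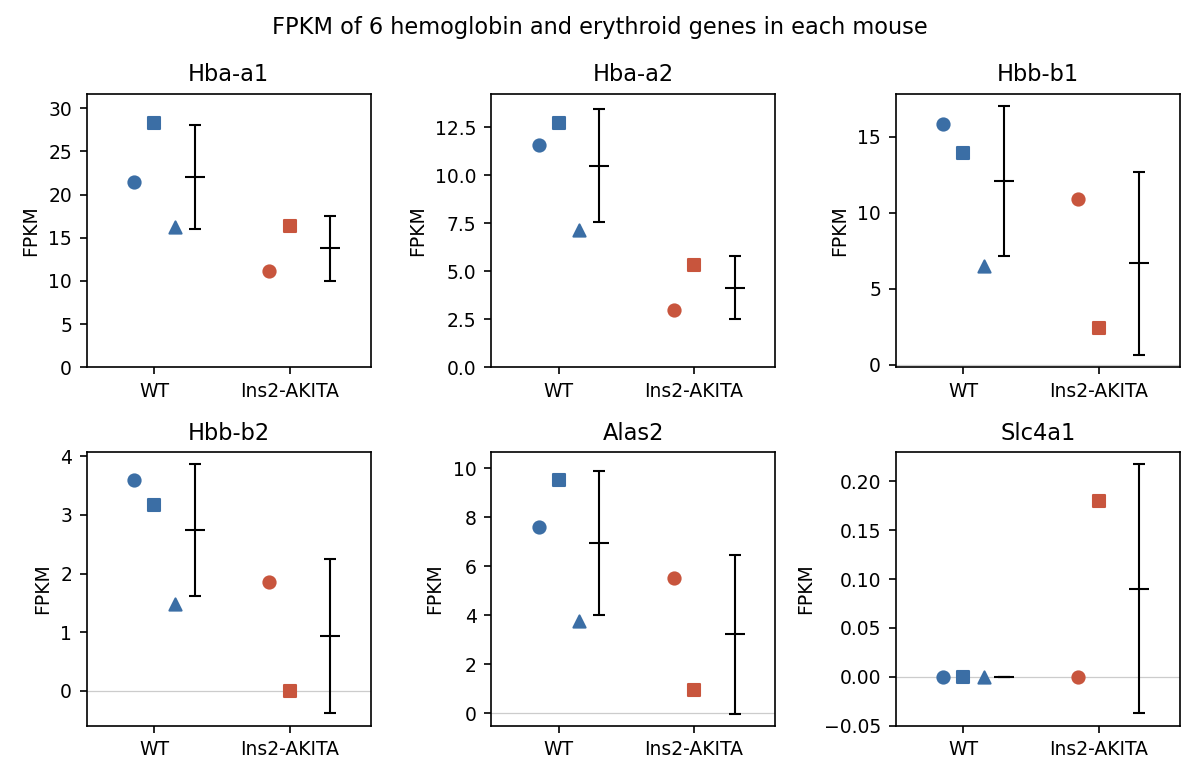
FPKM of each of the 6 genes (vertical axis, linear, a separate scale for each gene) in 3 WT mice (blue) and 2 Ins2-AKITA mice (red), with the circle, square and triangle standing for mouse 1, 2 and 3. Black bars are means with SD, and only in Hba-a2 do both Ins2-AKITA mice, at 2.99 and 5.30, lie below all WT mice.

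Among the alpha globins, Hba-a1 had 21.5, 28.3 and 16.3 FPKM in the WT mice, against 11.1 and 16.4 in the Ins2-AKITA mice. The groups overlapped, as Ins2-AKITA mouse 2 was just above WT mouse 3. The mean was 22.0 ± 6.05 (SD, n = 3) in WT and 13.8 ± 3.76 (SD, n = 2) in Ins2-AKITA mice, and the log2 fold change was -0.63 (SE 0.31), with an exact permutation p of 0.3. Hba-a2, which encodes the same alpha chain sequence, had 11.6, 12.7 and 7.14 FPKM in WT, against 2.99 and 5.30 in Ins2-AKITA mice. Here the groups did not overlap, which was the case in this direction for 1 of the 5 tested genes and for 10.3% of all tested symbols, while both Ins2-AKITA mice lay above all WT mice in 0 of the 5 and in 9.24% of all. The log2 fold change was -1.16 (SE 0.36), with an unadjusted limma p of 0.0176 and an exact permutation p of 0.1, the smallest that 3 against 2 mice allow. The fragment numbers, 15 in the WT mice together and 3 in the Ins2-AKITA mice together, gave a ratio of Ins2-AKITA to WT of 0.446 with an exact 95% interval from 0.0828 to 1.58. This interval covers counting error only and includes equal levels. Such ratios pool the fragments and the depth of all mice of a genotype. The deepest library, WT mouse 3, therefore weighs most, and the spread between mice is not covered. The corresponding ratio of Hba-a1 was 0.682, from 0.364 to 1.21. Within each mouse, Hba-a1 accounted for 65.0%, 69.0% and 69.5% of the alpha globin FPKM in WT, against 78.8% and 75.6% in Ins2-AKITA mice, a division that rests on how reads were shared between the near copies.

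Among the beta globins, Hbb-b1 had 15.8, 13.9 and 6.51 FPKM in the WT mice, against 10.9 and 2.42 in the Ins2-AKITA mice. The Ins2-AKITA mice lay far apart, with mouse 1 inside the WT range and mouse 2 below it. The log2 fold change was -0.95 (SE 0.61), with an exact permutation p of 0.4, and without Ins2-AKITA mouse 2 it was -0.05. The ratio of the fragment numbers, 5 against 18, was 0.619 with a counting interval from 0.18 to 1.73. Hbb-b2 had 3.59, 3.16 and 1.47 FPKM in WT, against 1.86 and 0 in Ins2-AKITA mice, and the groups overlapped. Its log2 fold change was -1.10 (SE 0.62), with an exact permutation p of 0.3, and without Ins2-AKITA mouse 2 it was -0.34. With 6 fragments in the WT mice together and 1 in the Ins2-AKITA mice together, the counting interval of its ratio of 0.369 ran from 0.00803 to 3.05. Both counting intervals of the beta globins include equal levels.

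Alas2 (ENSMUSG00000025270), at chrX:146981918-147005181 on the plus strand, had 7.60, 9.52 and 3.76 FPKM in the WT mice, against 5.51 and 0.934 in the Ins2-AKITA mice. Ins2-AKITA mouse 1 lay inside the WT range and mouse 2 below it, as for Hbb-b1. The log2 fold change was -1.09 (SE 0.62), with an exact permutation p of 0.3, and without Ins2-AKITA mouse 2 it was -0.21. Slc4a1 (ENSMUSG00000006574), at chr11:102210138-102227517 on the minus strand, was at 0 in all WT mice and in Ins2-AKITA mouse 1. Its 0.18 FPKM in Ins2-AKITA mouse 2 corresponded to 1 fragment at its longest transcript of 4545 bases. At that length, a count of 0 allowed Slc4a1 up to between 0.244 and 0.611 FPKM depending on the library, taken as 3 fragments and for counting error only.

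**Figure D3:**
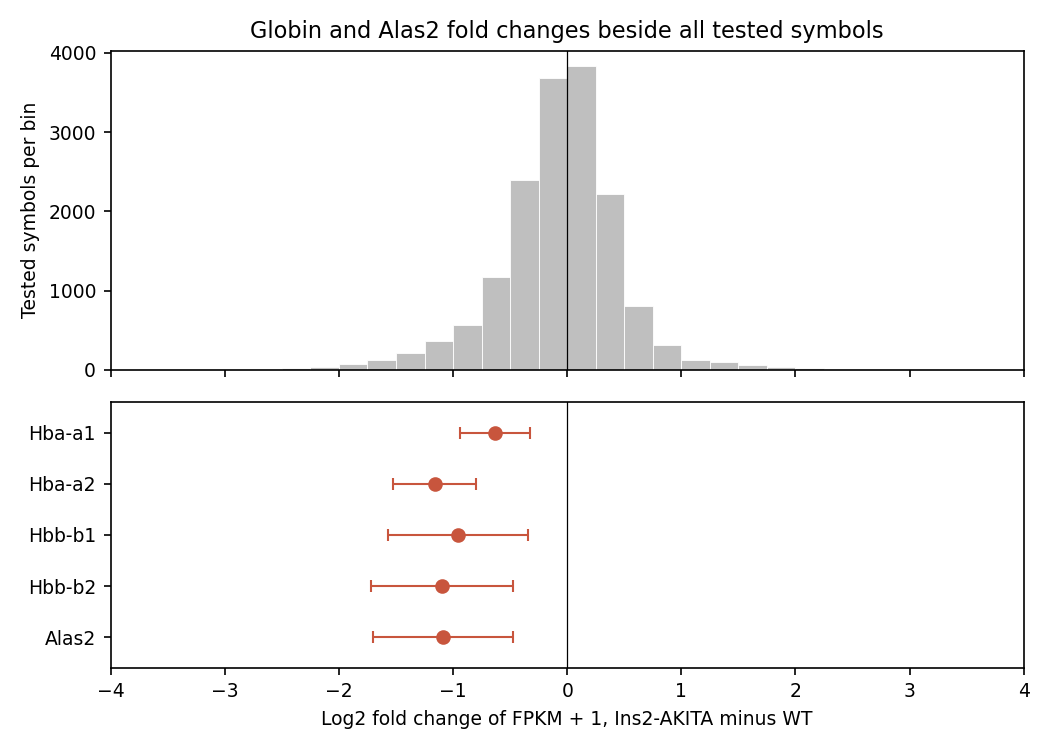
Top, number of tested symbols in bins of 0.25 of the log2 fold change of FPKM + 1 (horizontal axis, Ins2-AKITA minus WT), over 16286 symbols, of which those beyond 4 in either direction are not drawn. Bottom, log2 fold change with its standard error for the 5 tested genes, all between -1.16 and -0.63 and with an adjusted limma p of 0.896.

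Summed over the genes of a chain, alpha globin was 33.1, 41.0 and 23.4 FPKM in the WT mice, against 14.1 and 21.7 in the Ins2-AKITA mice, without an overlap. Beta globin was 19.4, 17.1 and 7.99 FPKM in WT, against 12.8 and 2.42 in Ins2-AKITA mice, with an overlap. The ratio of alpha to beta FPKM was 1.70, 2.40 and 2.93 in the WT mice, 1.10 in Ins2-AKITA mouse 1 and 8.99 in Ins2-AKITA mouse 2. The ratio in Ins2-AKITA mouse 2 rests on 1 beta globin fragment. All 4 globins together gave 52.5, 58.1 and 31.4 FPKM in the WT mice, against 26.9 and 24.1 in the Ins2-AKITA mice. The groups did not overlap, and the ratio of the means, Ins2-AKITA over WT, was 0.539. As TPM this ratio was 1.91, in the opposite direction. No test was run on these sums. The alpha sum is part of the sum of all 4 globins, so their 2 results are not independent. Among single tested symbols, 10.3% had both Ins2-AKITA mice below all WT mice.

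Because vessel content may differ between the samples, the globin sum was also set against 12 genes of brain endothelium in the same library, a ratio that no rescaling of whole libraries can change. Of the 12 endothelial genes, 12 were above 0 in all mice and 0 were called, and 4 had both Ins2-AKITA mice below all WT mice, as had 10.3% of all tested symbols. Their median log2 fold change was -0.43. Their summed FPKM was 711, 977 and 579 in the WT mice, against 604 and 489 in the Ins2-AKITA mice, so that the globin sum was highest where the endothelial sum was highest, in WT mouse 2, and lowest where it was lowest, in Ins2-AKITA mouse 2. Globin amounted to 7.39%, 5.95% and 5.42% of the endothelial sum in the WT mice, against 4.45% and 4.94% in the Ins2-AKITA mice. The groups did not overlap, and WT mouse 3 and Ins2-AKITA mouse 2 lay closest to each other. The ratio of the means was 0.751, the same from FPKM and TPM, where the globin sum itself gave 0.539 as FPKM and 1.91 as TPM. It was 0.749, 0.709 and 0.827 with Pecam1, Cldn5 or Cdh5 alone as the endothelial gene. These genes were chosen after the data were seen, and other genes of the list would give a wider range. The ratio of mean FPKM, Ins2-AKITA over WT, was 0.955 for Kdr and 1.00 for Slco1c1. For Ly6c1 it was 0.454, below the 0.539 of the globin sum, so that Ly6c1 alone would turn the direction. Alas2 relative to the same endothelial sum was 1.07%, 0.975% and 0.649% in WT, against 0.913% and 0.191% in Ins2-AKITA mice, with an overlap.

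**Figure D4:**
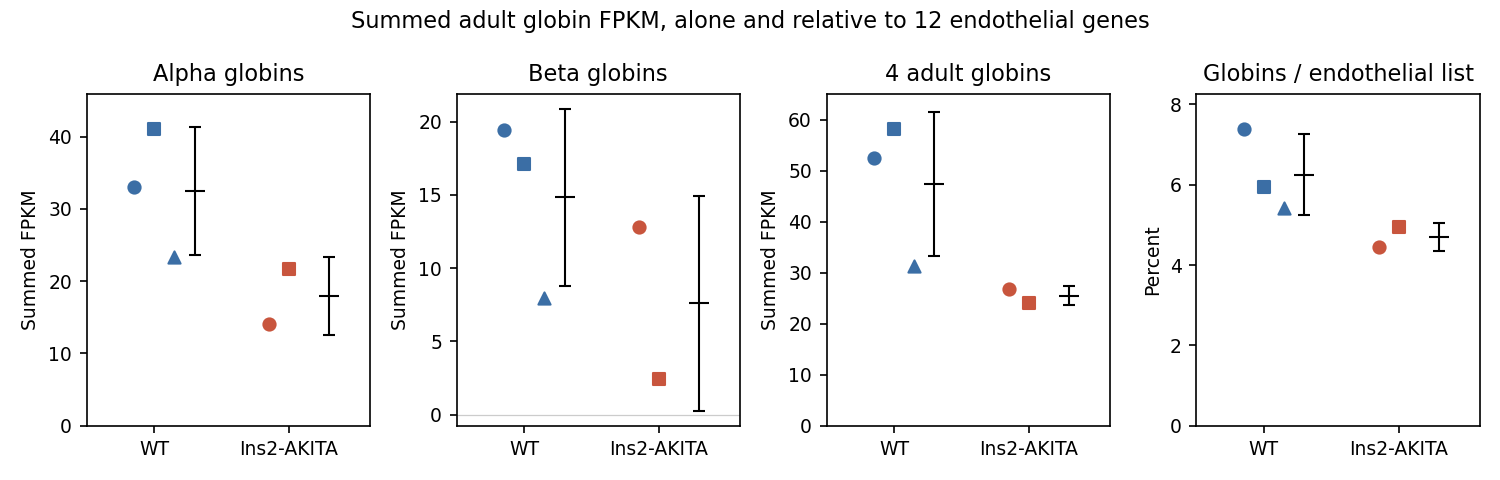
Summed FPKM of the alpha globins, the beta globins and all 4 adult globins, and the globin sum in percent of the summed FPKM of 12 endothelial genes (vertical axes, linear), in 3 WT (blue) and 2 Ins2-AKITA mice (red; circle, square and triangle for mouse 1, 2 and 3). Black bars are means with SD, and the globin sum was 31.4 to 58.1 in WT and 24.1 to 26.9 in Ins2-AKITA mice, whereas the beta globins overlapped.

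The summed levels of pericyte and smooth muscle genes and of astrocyte genes did not overlap between the genotypes, though no gene of these lists was called. Their part in the globin values was not tested. Genes of pericytes and smooth muscle summed to between 413 and 484 FPKM in WT and between 295 and 376 in Ins2-AKITA mice, with 10 of 10 genes above 0 in all mice. Acta2, the actin of smooth muscle, had a log2 fold change of -0.60 (SE 0.21), and Rgs5, a pericyte gene, of 0.01 (SE 0.21). Of the 10 genes, 5 had both Ins2-AKITA mice below all WT mice, as had 10.3% of all tested symbols. Acta2 was among them, whereas Rgs5 and Pdgfrb, another pericyte gene, overlapped. Genes of astrocytes summed to between 1494 and 2198 FPKM in WT and between 2609 and 2990 in Ins2-AKITA mice, with 6 of 6 genes above 0 in all mice. The glutamate transporters Slc1a2 and Slc1a3 had log2 fold changes of 0.62 (SE 0.29) and 0.47 (SE 0.23). Slc1a2, at 1897 and 2110 FPKM in the Ins2-AKITA mice, made up most of the astrocyte sum. Of the 6 astrocyte genes, 3 had both Ins2-AKITA mice above all WT mice, as had 9.24% of all tested symbols. Gfap, Aqp4 and Gja1 overlapped. The sums of neuronal and oligodendrocyte genes overlapped between the groups, at 744 to 822 and 1926 to 2613 FPKM in WT and 741 to 890 and 2096 to 2302 in Ins2-AKITA mice. So did the sums of 8 microglial genes, at 153 to 190 and 141 to 161 FPKM. No neuronal, oligodendrocyte or microglial gene was called either.

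The rest of the red cell program was at or near 0, apart from genes that brain cells use too. Of 7 embryonic and minor globins, among them Hba-x and Hbb-y, 7 were at 0 in all mice. In the list of 16 genes of the red cell membrane and skeleton, 5 were at 0 in all mice, among them Spna1, the erythroid alpha spectrin, the blood group proteins Rhag and Rhd, and Kel. A count of 0 allowed Rhag up to between 0.499 and 1.25 FPKM depending on the library. Protein 4.2, Epb4.2, had 0.22 FPKM in WT mouse 1, which is 1 fragment at its longest transcript, and 0 in all other mice. The list's most abundant genes, Epb4.9 and Epb4.1, which many cells use to link actin to the membrane, were between 61.5 and 73.2 and between 40.0 and 81.2 FPKM with overlapping groups. Of the 9 tested genes of this list, 0 were called and 4 had a log2 fold change below 0, with a median of 0.00, where 53.5% of all symbols were below 0.

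Transcription factors of red cell development gave a like picture. Gata1, which switches on most erythroid genes, and Gfi1b were at 0 in all mice. Klf1, which activates adult beta globin, was at 1.16 FPKM in WT mouse 2 and 1.36 in Ins2-AKITA mouse 1, or 2 fragments each, and 0 in the other mice. The most abundant of the 10 factors, Ldb1 and Lmo2, which endothelial and neural cells also use, had log2 fold changes of 0.26 (SE 0.23) and 0.16 (SE 0.43). Of the 5 tested, 0 were called and the median was -0.15. Among 21 other genes used in red cells, Hemgn and Trim10 were at 0 in all mice and 15 were tested, of which 0 were called and 5 had a log2 fold change below 0. Their median was 0.13. The 21 genes together summed to between 452 and 542 FPKM in WT, against 594 and 593 in Ins2-AKITA mice. This sum did not overlap, in the direction opposite to the globin sum. Of the 15 tested, 2 had both Ins2-AKITA mice above all WT mice and 2 had both below. Among all tested symbols these shares were 9.24% and 10.3%. The most abundant were the mitophagy receptor Bnip3l, between 151 and 202 FPKM in WT, against 270 and 220 in Ins2-AKITA mice (log2 fold change 0.48, SE 0.21), and the carbonic anhydrase Car2, between 44.4 and 93.9 and at 87.9 and 102 FPKM (0.53, SE 0.32).

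Heme synthesis genes, used by every cell, lay apart from Alas2 in level. Alas1, the general form of the enzyme, had 61.7, 66.6 and 51.0 FPKM in the WT mice, against 35.8 and 35.6 in the Ins2-AKITA mice, and the groups did not overlap. Its log2 fold change was -0.72 (SE 0.19), with an unadjusted limma p of 0.0091, an adjusted p of 0.896 and an exact permutation p of 0.1. In each mouse its FPKM was above that of Alas2. Urod, a later enzyme of the pathway, had 12.2, 45.9 and 13.7 FPKM in WT, against 17.6 and 35.3 in Ins2-AKITA mice, with a log2 fold change of 0.31 (SE 0.61). Of the 8 enzymes tested, 0 were called, 6 had a log2 fold change below 0 and the median was -0.34. In 2 of the 8, both Ins2-AKITA mice lay below all WT mice, as in 10.3% of all tested symbols. Of the genes that clear free hemoglobin and heme, 7 of 10 were tested and 0 were called, with a median of 0.00. The ferritin chains Fth1 and Ftl1, the most abundant of them, had log2 fold changes of 0.00 (SE 0.28) and 0.26 (SE 0.23). Hmox1, which breaks down heme and was named after its values were seen, had 12.2, 9.47 and 9.33 FPKM in the WT mice, against 0.642 and 8.57 in the Ins2-AKITA mice. The groups did not overlap, and its log2 fold change was -1.50 (SE 0.71), with an unadjusted limma p of 0.0759 and an exact permutation p of 0.1. Of the 7 tested clearance genes, 1 had both Ins2-AKITA mice below all WT mice and 1 had both above. Among all tested symbols these shares were 10.3% and 9.24%.

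Genes of other blood cells were low as well. Of 13 platelet and megakaryocyte genes, Ppbp, Gp6 and Treml1 were at 0 in all mice, and Pf4, a main platelet chemokine, was at 2.09 FPKM in WT mouse 2 and 0 in the others. Itga2b, a platelet integrin chain, had 10.3, 8.47 and 3.27 FPKM in the WT mice, against 1.14 and 2.26 in the Ins2-AKITA mice. The groups did not overlap, WT mouse 3 was again the lowest WT mouse, and the log2 fold change was -1.55 (SE 0.51), with an unadjusted limma p of 0.0222 and an exact permutation p of 0.2. Gp1bb was between 5.08 and 10.03 in WT, against 5.40 and 7.66 FPKM in Ins2-AKITA mice. The 13 genes together summed to between 13.2 and 25.4 FPKM in WT and between 10.4 and 12.2 in Ins2-AKITA mice. Of 13 neutrophil genes, 5 were at 0 in all mice, S100a8, Camp and Mpo among them. Their sum, between 3.53 and 46.0 FPKM in WT, against 1.496 and 1.66 in Ins2-AKITA mice, came in WT mouse 1 mostly from Lcn2, at 41.0 FPKM, an iron-binding protein that other cells also make. Retnlg, a neutrophil gene, had 2.24, 1.97 and 0.92 FPKM in WT, and was at 0 in both mice of the other genotype. Its mean of 1.03 FPKM was just above the minimum for the test, and the fragments behind it were not estimated. Both Ins2-AKITA mice lay below all WT mice in 10.3% of all tested symbols. Of 12 lymphocyte genes 4 were at 0 in all mice and 1, Cd4, was tested (log2 fold change -0.40, SE 0.56), and Cd79a was at 0 in 3 of the 5 mice. Of 6 monocyte genes F13a1 alone was tested (-0.29, SE 0.56), and Itgal reached at most 0.774 FPKM. No gene of these lists was called by the adjusted limma test.

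Genes of plasma proteins made in the liver were examined as well, which are no measure of blood cells. Of 9, 5 were at 0 in all mice, albumin (Alb) among them. Ttr, which the choroid plexus of the brain makes too, was between 669 and 1993 FPKM in WT, against 1790 and 960 in Ins2-AKITA mice. Apoa2 was between 3.18 and 5.25 FPKM in WT, against 0 and 6.34 in Ins2-AKITA mice.

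**Figure D5:**
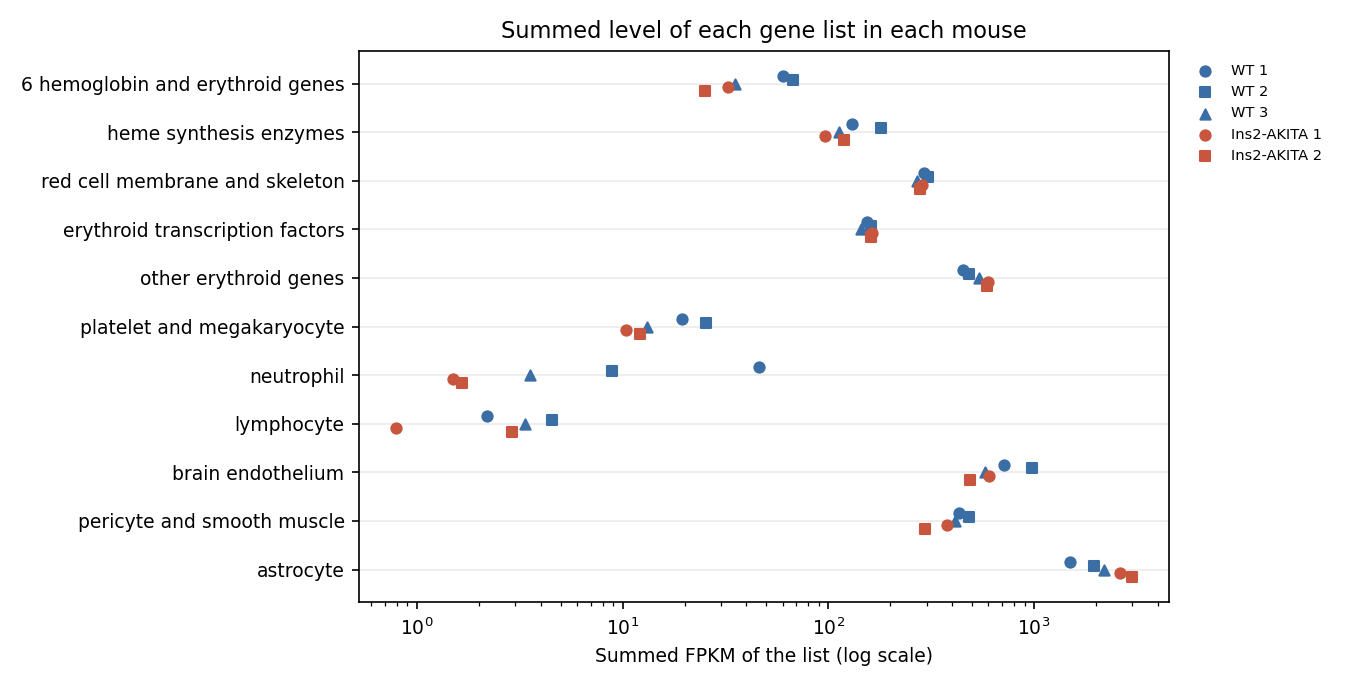
Summed FPKM of each gene list (horizontal axis, log scale) in each mouse, WT in blue and Ins2-AKITA in red, with the circle, square and triangle for mouse 1, 2 and 3. The 6 hemoglobin and erythroid genes summed to between 35.1 and 67.7 FPKM in WT, against 32.4 and 25.2 in Ins2-AKITA mice. The astrocyte list and the list of other erythroid genes ran the other way.

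The genes whose levels across the 5 mice were most like the globin sum were not red cell genes. Likeness was the root mean square difference between centred log2(FPKM + 1) profiles, over 10959 symbols with a mean of at least 5 FPKM that were above 0 in all mice. The smallest differences were those of Rasip1 at 0.08, Glis2 at 0.08, Zc3h18 at 0.09, R74862 at 0.09 and 2310035C23Rik at 0.09. Rasip1, an endothelial gene needed for vessel lumen formation, had 23.4, 27.6 and 16.2 FPKM in the WT mice, against 12.8 and 12.02 in the Ins2-AKITA mice. On the same scale Hba-a1 and Hba-a2, which enter the sum, stood at 0.26 and 0.31, and Hbb-b1 at 0.55. Alas2, which does not enter the sum, stood at 0.53 and would rank 4867. With 5 mice such a profile has few values, and the order is a description of these libraries.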

How the data were processed

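RNA of brain microvascular fragments (3 WT mice, 2 Ins2-AKITA mice) had been depleted of ribosomal RNA and made into stranded libraries. Per the study's methods and the submitters' processing notes, the authors mapped reads to NCBIM37 with TopHat2 2.0.4, removed duplicates with Picard 1.92 and used Cufflinks 2.2.1. They deposited FPKM per Ensembl gene and mouse. The program that made them and the Ensembl release were not given in the sources used here.

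Of 37982 identifiers, 37197 were found in GENCODE vM1, and rows with a shared symbol were summed. The 16286 symbols that averaged at least 1 FPKM were fitted with limma 3.58.1 in R 4.3.3 (lmFit, eBayes with trend, genotype only, two-sided, Benjamini-Hochberg, threshold 0.05) on log2(FPKM + 1), which understates changes of low genes. The fit was tested on simulated data. Exact permutation tests were two-sided over 10 splits of the mice. Fragment numbers were estimated from the FPKM steps of low genes and annotated lengths, and between 97.36% and 98.09% of these values per mouse were whole within 0.05. The intervals and the limit of 3 fragments cover counting error only. Python 3.11.15 was used for other steps.

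From each list the 2 genes with the highest mean FPKM, any called gene and the 5 profiles most like the globin sum were named, and further genes were named after their values were seen. The members and lists were chosen with earlier results of these data known. Alternatives were TPM, a filter at 5 FPKM or none, a pseudocount of 0.1, median-ratio scaling, a constant prior, the highest row per symbol, a replicate block and each mouse left out. Single endothelial genes as denominator were chosen after seeing the data.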

Additional observations from a re-analysis of the deposited data

How the results depend on the processing

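Of the 5 tested genes, 0 were called in either direction under all alternatives run, with a smallest adjusted limma p of 0.364. The log2 fold changes turned positive only as TPM, to 0.86 for Hba-a1, 0.30 for Hba-a2, 0.38 for Hbb-b1 and 0.12 for Alas2. The deposited FPKM sums of the libraries ran from 1532000 to 13030000, and TPM divides by them. Protein-coding genes made up between 3.09% and 10.98% of these sums in WT, against 9.76% and 27.5% in Ins2-AKITA mice. As a share of protein-coding FPKM alone, the globin sum was lower in both Ins2-AKITA mice than in all WT mice. The part of the other rows in the TPM values was not tested. As TPM the ratio of Ins2-AKITA to WT globin sums was 1.91 in place of 0.539. Leaving out 1 mouse at a time, the globin sum ratio ran from 0.461 to 0.608 and the globin to endothelial ratio from 0.704 to 0.826, and the log2 fold changes from -0.89 to -0.37 for Hba-a1, -1.49 to -0.83 for Hba-a2, -1.86 to -0.05 for Hbb-b1, -1.85 to -0.34 for Hbb-b2 and -1.96 to -0.21 for Alas2. For both beta globins and Alas2 the value nearest 0 was that without Ins2-AKITA replicate 2. Without an Ins2-AKITA mouse, the lone mouse is assumed to vary like the WT mice.

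Over all genes, 0 were called higher and 4 lower. TPM gave 58 and 30, a constant prior 1 and 2, and no filter and the filter at 5 FPKM 2 lower each. With a mouse left out there were 0 to 10 higher and 2 to 10 lower, with 10 lower without WT replicate 3, and 10 higher and 2 lower without Ins2-AKITA replicate 2. The cause was not tested. The filter at 5 FPKM left Hbb-b2 untested.

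Mice of both genotypes carry the numbers 1 and 2, but the study names no pairs. Deviations from the group means of same-numbered mice had correlations across genes of 0.05 and -0.03, and deviations of 2 mice from their own mean mirror each other by construction. With the replicate number as a block, 0 genes were called higher and 5 lower, and the log2 fold changes were -0.82 for Hba-a1, -1.39 for Hba-a2, -1.31 for Hbb-b1, -1.37 for Hbb-b2 and -1.42 for Alas2, all with an adjusted limma p of 0.603. WT mouse 3 is the only mouse with its number, so under the block it adds nothing to the genotype estimate. These log2 fold changes are therefore the same as those without WT mouse 3, and they are no check of pairing.

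Depth limits single values. At most 22 fragments per mouse stand behind a globin gene, near copies share most of their sequence, and p-values reflect only the spread between 5 libraries.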
